A study of Caenorhabditis elegans with 6 samples.

Results

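The PMK-1 p38 MAP kinase cascade of Caenorhabditis elegans was followed through 6 genes, tir-1, nsy-1, sek-1, pmk-1, atf-7 and vhp-1, taken as every probe set that the platform annotation gives to them. The array holds 22625 probe sets, with 17138 genes named by a probe set of their own. Of these probe sets 10 belonged to the cascade, and they read 5 of its 6 genes. The annotation names no probe set for nsy-1 (sequence name F59A6.1), which was therefore not analysed here. Whole worms of the wild-type strain N2 (Bristol), labelled as L4 larvae, were measured on Affymetrix arrays. One group of 3 arrays held worms given 100 uM GYY4137, a compound that releases hydrogen sulfide slowly, for 48 h in liquid and then 12 h on agar plates. The other group of 3 arrays held control worms raised under standard laboratory conditions per the series design. The growth protocol text is the same for all 6 samples and describes the GYY4137 exposure for the controls too, so the groups rest on the sample titles and the treatment label, and what mock handling the controls had is not given in the sources used here. Both groups shared the strain and the labelled stage, and no mutant or transgene was used. Separate cultures are not stated for the replicates, so every p-value reflects the spread among these arrays, and that spread may be technical.

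In this pathway TIR-1, the worm relative of the human adaptor SARM, activates the MAP kinase kinase kinase NSY-1. NSY-1 acts on the MAP kinase kinase SEK-1, which phosphorylates the p38 kinase PMK-1, and PMK-1 in turn phosphorylates the transcription factor ATF-7 and lifts its repression of immune genes. VHP-1 is a phosphatase that removes phosphate from MAP kinases and so limits the cascade. In the worm intestine the cascade is best known for defence against swallowed bacteria, in the epidermis for antimicrobial peptides after wounding or fungal infection, and through SKN-1 for resistance to oxidants. The signal passes by phosphorylation, which an array of transcripts does not measure.

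The cascade transcripts did not pass the test in either direction after GYY4137, with mean differences of at most 0.45 on the log2 scale. Of 10 immune genes reported to need PMK-1, listed with earlier results of these data known, 6 rose. That count was 1 with no filter on low values and 1 to 7 when single arrays were left out. Among the 6, sysm-1 and irg-5 had control values at or under the floor of that filter. The limma fit across 8053 probe sets called 0 of the 5 member probe sets that could be tested, where 1.5% of all tested probe sets were called (121), 1.09% raised (88) and 0.41% lowered (33). Of the 5, 0 also reached an unadjusted p under 0.05, against 17.7% of all tested probe sets. Tested means above 4 on the log2 scale, the floor used here for a firm signal, on at least 3 of the 6 arrays. Members from 3 genes passed that filter, namely tir-1, atf-7 and vhp-1, and each of these probe sets was above the floor on all 6 arrays. The other 5 member probe sets, among them the only one for pmk-1 and both for sek-1, did not pass the filter, and 4 of them were at or under the floor on every array. In the fit over all probe sets 0 of these 5 were called, where the share called was 0.146%. With arrays weighted by their reliability, 17.2% of all tested probe sets were called. In that setting 0 of the 3 member genes that passed the filter were called, each read on its probe set of highest mean. The other member probe sets were not counted there.

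Over all tested probe sets GYY4137 replicate 3 was the odd array out, so values without it are given beside each named difference that it turned or moved by over 1.5 times. Pearson correlations across probe sets were 0.94 to 0.965 between it and the other arrays, and 0.979 to 0.993 between those 5. It also had the fewest probe sets above the floor, 7723, where the other arrays had between 7927 and 8050.

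**Figure D1:**
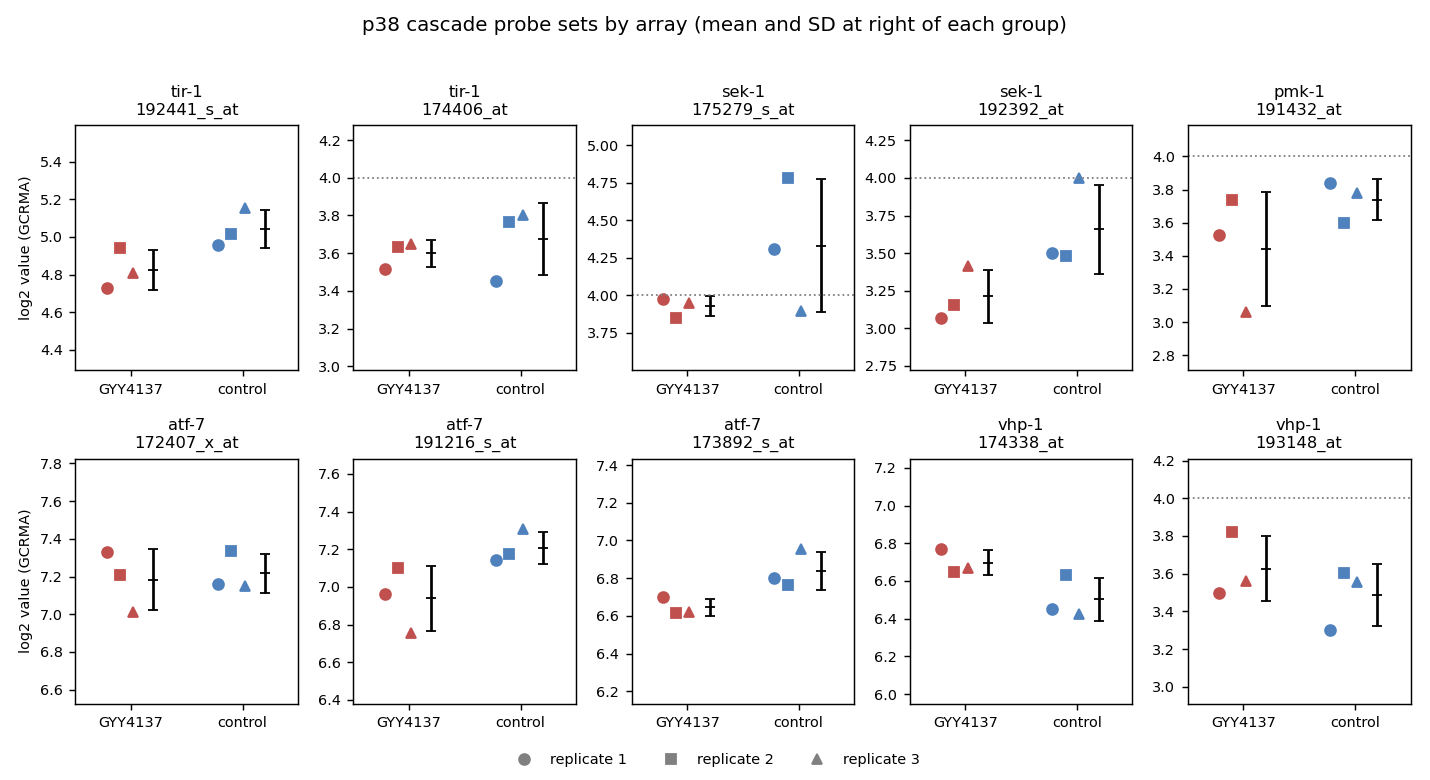
Log2 GCRMA values of the 10 member probe sets on each array, GYY4137 at the left and control at the right of each panel, with the mean and SD of 3 arrays beside the points and a dotted line at the floor of 4. The panels show that tir-1 (192441_s_at) and the atf-7 probe sets 191216_s_at and 173892_s_at were lower on every GYY4137 array, vhp-1 (174338_at) was higher on every GYY4137 array, and pmk-1 stayed under the floor on all 6.

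The adaptor gene tir-1 (F13B10.1) was read by a pair of probe sets. On 192441_s_at the log2 values were 4.73, 4.94 and 4.81 in GYY4137 worms and 4.96, 5.01 and 5.15 in control worms. Every GYY4137 array lay below every control array, although the highest GYY4137 value and the lowest control value were almost equal. The group means were 4.83 ± 0.11 in GYY4137 worms and 5.04 ± 0.10 in control worms (SD, n = 3 each). The difference was -0.22 ± 0.11 on the log2 scale (0.861-fold, 95% interval -0.48 to 0.05, limma adjusted p = 0.356), and here and below the ± of a difference is the standard error of the fit. Leaving out GYY4137 replicate 3 gave -0.21. The other probe set, 174406_at, lay under the floor on all 6 arrays, with 3.52, 3.63 and 3.65 in GYY4137 worms and 3.45, 3.77 and 3.81 in control worms, and its groups overlapped.

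The kinase kinase gene sek-1 (R03G5.2) gave a weak signal. On 175279_s_at the values were 3.98, 3.85 and 3.95 in GYY4137 worms and 4.31, 4.78 and 3.90 in control worms. Only 2 arrays, both control, exceeded the floor, while control replicate 3 lay among the GYY4137 values. The difference in the fit without a filter was -0.40 ± 0.23 (0.756-fold, 95% interval -0.98 to 0.17, limma adjusted p = 0.657). On 192392_at the values were 3.07, 3.16 and 3.41 in GYY4137 worms and 3.50, 3.48 and 4.00 in control worms. The groups did not overlap there, with GYY4137 below, as for 7.65% of all probe sets, and the difference was -0.45 ± 0.17 (95% interval -0.888 to -0.002, limma adjusted p = 0.503, unadjusted p = 0.0493), the only member probe set with an unadjusted p under 0.05. Both sek-1 probe sets thus had a lower GYY4137 mean, but at a signal where the array gives no firm level.

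The p38 kinase gene pmk-1 (B0218.3) had 1 probe set, 191432_at, which stayed under the floor on all 6 arrays. Its values were 3.53, 3.74 and 3.06 in GYY4137 worms and 3.84, 3.60 and 3.78 in control worms. GYY4137 replicate 3 was the lowest, and GYY4137 replicate 2 lay above control replicate 2, so the groups overlapped. The difference in the fit without a filter was -0.30 ± 0.19 (0.812-fold, 95% interval -0.77 to 0.17, limma adjusted p = 0.705). It was -0.11 without GYY4137 replicate 3. In the RefSeq gene table pmk-1 follows pmk-3 and pmk-2, the other p38 genes, with which it forms an operon. The probe sets of pmk-2 and pmk-3 did not pass the filter either.

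The transcription factor gene atf-7 (C07G2.2), a bZIP factor of the ATF family, had the firmest signal of the members together with vhp-1. It was read by 3 probe sets, which share the gene and are not independent. Whether they differed from one another was not tested. On 191216_s_at the values were 6.96, 7.10 and 6.76 in GYY4137 worms and 7.14, 7.18 and 7.30 in control worms. On 173892_s_at they were 6.70, 6.62 and 6.62 in GYY4137 worms and 6.80, 6.76 and 6.95 in control worms. On both, every GYY4137 array lay below every control array, and the differences were -0.27 ± 0.13 (0.83-fold, 95% interval -0.57 to 0.03, limma adjusted p = 0.317) and -0.19 ± 0.11 (0.874-fold, 95% interval -0.45 to 0.06, limma adjusted p = 0.369). Both were -0.18 without GYY4137 replicate 3.

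The third atf-7 probe set, 172407_x_at, had the highest mean and so stood for the gene in counts by gene. Its values were 7.33, 7.21 and 7.01 in GYY4137 worms and 7.16, 7.34 and 7.15 in control worms. The groups overlapped, with GYY4137 replicate 1 close to the highest control array and GYY4137 replicate 3 the lowest of all. The difference was -0.03 ± 0.13 (95% interval -0.33 to 0.26, limma adjusted p = 0.904) and turned to 0.05 without GYY4137 replicate 3. Probe sets ending in _x_at or _s_at can bind more than 1 transcript. RefSeq lists 4 proteins for atf-7, and which transcripts each probe set binds was not analysed here.

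The phosphatase gene vhp-1 (F08B1.1) was the only member with higher GYY4137 means. On 174338_at the values were 6.77, 6.65 and 6.67 in GYY4137 worms and 6.45, 6.63 and 6.43 in control worms. The GYY4137 arrays all lay above the control arrays, GYY4137 replicate 2 and control replicate 2 only narrowly. The group means were 6.70 ± 0.07 in GYY4137 worms and 6.50 ± 0.11 in control worms (SD, n = 3 each), and the difference was 0.19 ± 0.11 (1.14-fold, 95% interval -0.07 to 0.45, limma adjusted p = 0.377). Leaving out GYY4137 replicate 3 gave 0.21. The second probe set, 193148_at, lay under the floor on all 6 arrays and overlapped between groups, with a difference of 0.14 ± 0.12.

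**Figure D2:**
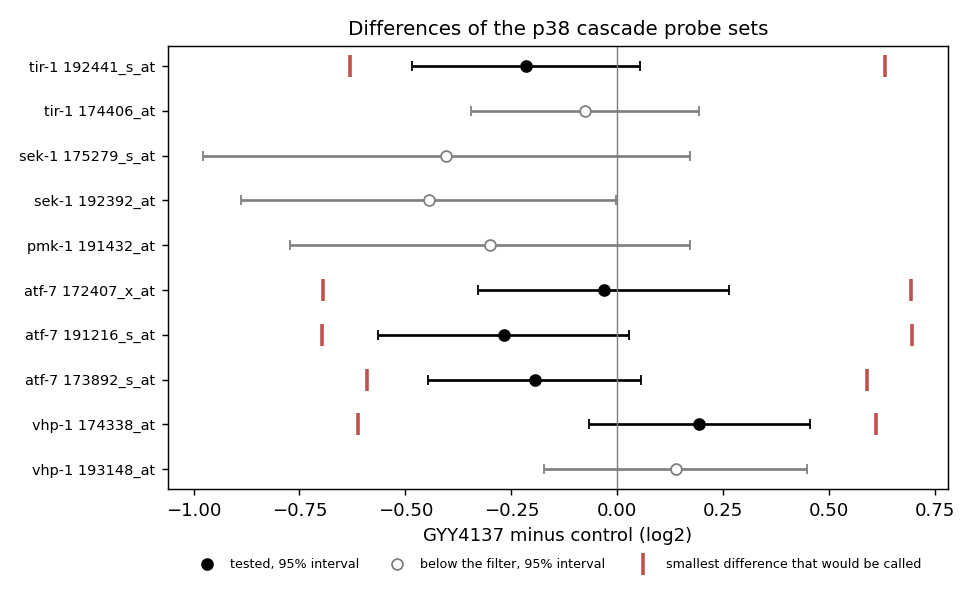
GYY4137 minus control on the log2 scale for the 10 member probe sets, with 95% intervals from the limma fit and, for tested probe sets, ticks at the smallest difference that would have been called. Every interval of a tested probe set includes 0 and lies inside its ticks, which stand between 0.59 and 0.70 on either side.

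Among the 5 tested probe sets the adaptor and transcription factor genes had 4 with lower GYY4137 means, and the phosphatase gene had 1 with a higher mean. The 5 at weaker signal, 4 below control and 1 above, give no firm level. In all 8 of 10 member probe sets lay below control and 2 above, where 57.1% of all tested probe sets and 39.6% of all probe sets without a filter lay below control. When GYY4137 replicate 3 was left out 7 of 10 were below, since 172407_x_at of atf-7 changed sign. The share of all tested probe sets below control was not computed without that array, here or for the markers below. GYY4137 and control arrays were fully separated on 4 of the 5 tested member probe sets, 3 below and 1 above, against 29% of all tested probe sets (15.6% below and 13.4% above). These 4 come from 3 genes, and all were read on the same 6 arrays. The differences were small beside what the fit could call: tir-1 would have needed 0.63 on the log2 scale (1.55-fold), vhp-1 0.61 (1.53-fold) and the atf-7 probe sets between 0.59 and 0.70 (1.51-fold to 1.62-fold). The 95% intervals reflect only the spread among these arrays, which may be technical. On the fold scale they ran from 0.715 to 1.04 for tir-1 and from 0.955 to 1.37 for vhp-1. For the atf-7 probe sets they ran from 0.676 to 1.2 at the extremes.

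Of the markers of the germline and oocytes, 6 of 6 genes were below control and 0 were called, where 57.1% of tested probe sets lay below control. Their summed linear signal ran from 1800 to 2020 on GYY4137 arrays and from 2060 to 2220 on control arrays, and all 6 were above the floor on every array. The largest difference among them, that of the Notch receptor gene glp-1, was -0.91 and became -0.29 without GYY4137 replicate 3, where glp-1 stood at 4.72 against 6.75 and 6.37 on the other GYY4137 arrays. In that setting 6 of 6 were again below control, with sums from 1900 to 2020. Neuron markers were of interest because tir-1 also acts in neurons. They summed to between 645 and 820 on GYY4137 arrays and between 541 and 647 on control arrays. Above control were 3 of 4 tested genes, where 43.4% of all tested genes were, and 0 were called. The genes unc-119 and unc-17 were under the floor. The upper end of the GYY4137 range was replicate 3, and the other GYY4137 arrays lay between 645 and 660. The part of either cell type in the lower tir-1 and atf-7 means was not tested. In RNA from whole worms, fewer cells of a type and less RNA per cell cannot be told apart.

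The genes whose values ran most like each tested member over the 6 arrays were found by Pearson correlation among 7681 tested probe sets with 1 gene symbol. With 6 arrays and that many candidates these values only describe the arrays. For tir-1 (192441_s_at) they were T19D12.1 (0.987), the troponin I gene tni-4 (0.974) and nrfl-1 (0.971). For atf-7 (172407_x_at) they were rib-1 (0.991), asp-13 (0.988) and the histone deacetylase gene hda-3 (0.969). For vhp-1 (174338_at) they were emc-2 (0.984), the metallothionein gene mtl-2 (0.965) and the infection-response gene irg-8 (0.965). None of the 9 was called by limma. The largest difference among them was that of irg-8, at 0.64 ± 0.18 (adjusted p = 0.144), with means of 8.70 in GYY4137 worms and 8.07 in control worms.

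Upstream of the cascade, 13 genes reported to feed into it were listed, and 0 of the 7 that passed the filter were called. Their median difference was 0.09, against -0.04 over all 6229 tested genes. The protein kinase D gene dkf-2, which activates PMK-1 in the intestine, had 4.27, 4.45 and 4.17 in GYY4137 worms and 4.45, 4.55 and 4.73 in control worms, a difference of -0.28 ± 0.13 (limma adjusted p = 0.308). The calcium/calmodulin-dependent kinase gene unc-43, which acts on NSY-1 in neurons, differed by -0.29 ± 0.16, the phospholipase C gene egl-8 by 0.14 ± 0.11 and the receptor gene dcar-1 by 0.15 ± 0.15, with overlapping groups in each. The dcar-1 difference was 0.00 without GYY4137 replicate 3. A second tested probe set of unc-43, 175824_s_at, differed by -0.03 ± 0.15, or -0.14 without that array.

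Among 21 genes of the other MAP kinase modules, 0 of 7 tested were called (median -0.05). The Raf kinase gene lin-45 of the ERK module had 7.32, 7.15 and 6.93 in GYY4137 worms and 7.43, 7.66 and 7.65 in control worms. Its groups did not overlap (-0.44 ± 0.14, limma adjusted p = 0.187). The second tested lin-45 probe set, 191672_s_at, differed by -0.514 ± 0.165 (limma adjusted p = 0.194), also without overlap. The kinase gene dlk-1, which signals through PMK-3, had 5.28, 5.24 and 5.16 in GYY4137 worms and 4.78, 4.98 and 5.12 in control worms (0.27 ± 0.12, limma adjusted p = 0.307). The kinase gene mnk-1 differed by -0.30 ± 0.15. The MAP kinase kinase kinase gene mtk-1 had 6.05 and 5.98 on the first GYY4137 arrays but 4.95 on GYY4137 replicate 3, against 6.14, 6.24 and 5.78 in control worms. Its difference of -0.39 ± 0.30 became -0.04 without that array. The second tested mtk-1 probe set, 189122_s_at, differed by -0.579 ± 0.458, or 0.011 without that array.

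Of 12 transcription factors and regulators that work beside ATF-7, 0 of 6 tested were called (median 0.05). The bZIP gene zip-2, which drives an infection response separate from PMK-1, had 7.72, 7.66 and 7.78 in GYY4137 worms and 7.40, 7.25 and 7.25 in control worms. All GYY4137 arrays lay above all control arrays, and the difference was 0.42 ± 0.11 (1.34-fold, limma adjusted p = 0.119). The GATA factor gene elt-7, expressed in the intestine, differed by 0.41 ± 0.16 (limma adjusted p = 0.256), also without overlap. The oxidant-response factor gene skn-1, whose protein PMK-1 phosphorylates, differed by -0.10 ± 0.12. Its second tested probe set, 174799_at, differed by -0.22 ± 0.13 with overlapping groups. The gene wdr-23, whose protein holds SKN-1 down, differed by -0.41 ± 0.28, or -0.05 without GYY4137 replicate 3.

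Downstream, 10 immune genes reported to depend on PMK-1 were listed, and all 10 passed the filter. Of these 6 rose, 0 fell and 4 did not pass. Among the 6, irg-5 had 0 control arrays above the floor and sysm-1 had 2. Both thus passed the filter only with their GYY4137 arrays. The other raised genes were above the floor on all 6 arrays. As background, 1.17% of all 6229 tested genes rose (73) and 0.321% fell (20). The median difference was 0.95, against -0.04 over all tested genes. GYY4137 and control arrays were fully separated for 8 of the 10, with GYY4137 above, as for 13.4% of all tested probe sets. The list was drawn up with earlier results of these data known, which already showed some of its members raised, so its count is not independent evidence.

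The reporter gene of the pathway, sysm-1, had 6.56, 6.39 and 6.54 in GYY4137 worms and 4.01, 4.01 and 3.98 in control worms, at the floor. The fitted difference was 2.50 ± 0.10 (limma adjusted p = 0.000219), and set against the floor it was at least 5.62-fold higher. The CUB-like domain gene C17H12.8 had 8.87, 8.78 and 8.66 in GYY4137 worms and 7.57, 7.87 and 7.68 in control worms. It rose by 1.06 ± 0.12 (2.09-fold, limma adjusted p = 0.0134), and its second probe set rose by 1.11 ± 0.16 (adjusted p = 0.0294). All 6 arrays were well above the floor, and the groups did not overlap.

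The CUB-like domain gene K08D8.5 had 5.68, 5.85 and 6.24 in GYY4137 worms and 4.72, 5.01 and 5.08 in control worms. It rose by 0.98 ± 0.17 (1.98-fold, limma adjusted p = 0.0461), and its second probe set rose by 1.18 ± 0.21 (adjusted p = 0.0461). The further genes that passed were the lectin gene clec-85 (1.32 ± 0.22, limma adjusted p = 0.0379), lys-2, which encodes a lysozyme (0.92 ± 0.13, adjusted p = 0.0223), and irg-5, a CUB-like domain gene of the infection response (adjusted p = 0.0179). Irg-5 had 4.72, 4.68 and 5.26 in GYY4137 worms, and its control values of 3.64, 3.57 and 3.53 lay under the floor. With its control values set to the floor, the estimate was 1.85-fold higher in GYY4137 worms, given without an interval. With no filter irg-5 was not called (limma adjusted p = 0.097).

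The 4 that did not pass were of several kinds. The lectin gene clec-67 had 5.60, 5.79 and 6.47 in GYY4137 worms and 5.20, 5.19 and 5.09 in control worms, without overlap (0.79 ± 0.22, limma adjusted p = 0.144). The CUB-like domain gene irg-4 had 5.35, 5.80 and 5.68 in GYY4137 worms and 5.72, 5.48 and 5.59 in control worms, a difference of 0.02 ± 0.15, or -0.02 without GYY4137 replicate 3. The epidermal antimicrobial peptide gene nlp-31 differed by 0.30 ± 0.11 (limma adjusted p = 0.225) and its relative nlp-29 by -0.23 ± 0.20 (limma adjusted p = 0.531). Both were read on probe sets ending in _x_at, which can bind other transcripts too. For nlp-29 the GYY4137 values were 5.96, 6.23 and 5.49, with replicate 3 the lowest, and the control values were 5.96, 6.19 and 6.20. That array set the nlp-29 difference, which was -0.02 without it. The members of this list therefore did not move as one, and the difference between its intestinal and epidermal genes was not tested. Of 6 epidermis markers 4 were above control, 2 below and 0 called, where 43.4% of all tested genes lay above control. Their summed linear signal was 1220 to 1390 on GYY4137 arrays and 1220 to 1330 on control arrays. Without GYY4137 replicate 3, 3 of the 6 were below control. Their part in the nlp-29 and nlp-31 values was not tested.

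**Figure D3:**
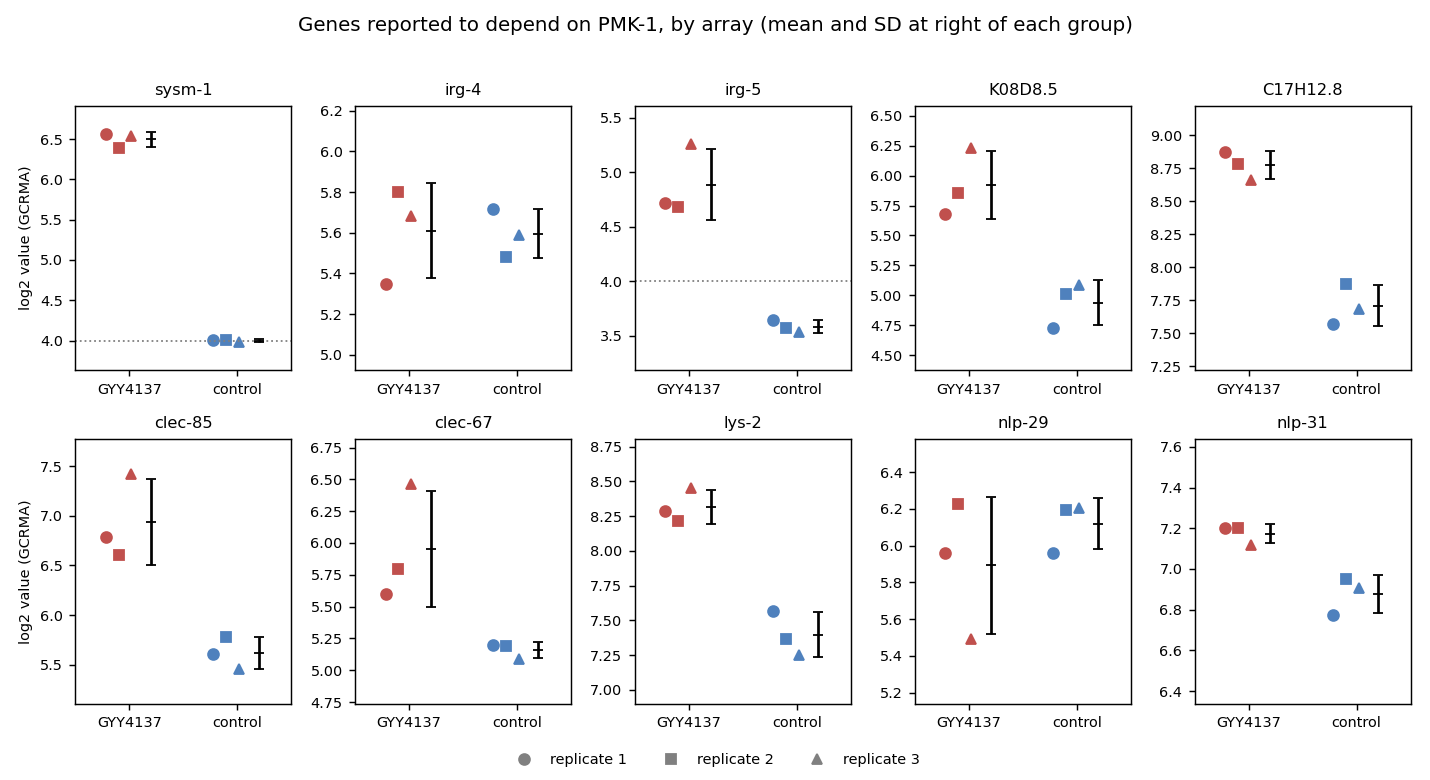
Log2 GCRMA values of the 10 genes reported to depend on PMK-1, on each array, GYY4137 at the left and control at the right of each panel, with the mean and SD of 3 arrays and a dotted line at the floor of 4. Sysm-1, irg-5, K08D8.5, C17H12.8, clec-85, clec-67, lys-2 and nlp-31 show no overlap between groups, while irg-4 and nlp-29 overlap.

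Of the 6 calls, sysm-1 held whichever array was left out, and the other 5 were lost in at least 1 leave-out. When GYY4137 replicate 3 was left out 7 of the 10 were called, where 4.73% of all tested probe sets were called and 3.04% raised. Without GYY4137 replicate 1 the count was 3 (0.596% of all tested probe sets raised) and without GYY4137 replicate 2 it was 1 (0.211%). Without control replicate 1, 2 or 3 it was 1, 2 and 1 (0.0993%, 0.137% and 0.161%), so calls fell over the whole table in these 5 settings. With no filter on low values it was 1, where 0.0931% of all probe sets were raised. The list median moved less than the calls, from 0.84 to 1.00 over the 6 leave-outs. Single genes differed in this: C17H12.8 ran from 0.99 to 1.15, clec-85 from 1.08 to 1.49 and clec-67 from 0.53 to 0.97. Of the intestine markers, 4 of 5 tested were above control and 0 were called, where 43.4% of all tested genes lay above control. Their summed linear signal was 1960 to 2100 on GYY4137 arrays and 1850 to 1970 on control arrays. The upper end of the GYY4137 range was replicate 3. Without that array the sums were 1960 to 1980, and 2 of the 5 were below control. The gene elt-2 was under the floor, and the part of these markers in the rises was not tested.

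Of 3 listed targets of SKN-1, the oxidant branch of the pathway, 0 were called. The glutathione S-transferase gene gst-10 had 5.61, 5.90 and 6.17 in GYY4137 worms and 7.34, 6.67 and 6.75 in control worms. Its groups did not overlap and it differed by -1.02 ± 0.22 (0.492-fold, limma adjusted p = 0.0798). Leaving out GYY4137 replicate 3 put it at -1.16, and it passed (limma adjusted p = 0.0126), where 1.69% of all tested probe sets were lowered. The gene of the first enzyme of glutathione synthesis, gcs-1, differed by -0.54 ± 0.18 (limma adjusted p = 0.206), also without overlap, or by -0.34 without GYY4137 replicate 3. Its second tested probe set, 173813_at, differed by -0.11 ± 0.17 with overlapping groups. The gst-4 difference was 0.21 ± 0.22, or 0.05 without GYY4137 replicate 3. The infection-response genes irg-1 and irg-2, reported to respond independently of PMK-1, lay under the floor on all 6 arrays. Irg-1 stood at 3.00, 3.00 and 3.01 in GYY4137 worms and 3.25, 3.34 and 3.38 in control worms, and irg-2 differed by 0.06 ± 0.12, or 0.11 without GYY4137 replicate 3.

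**Figure D4:**
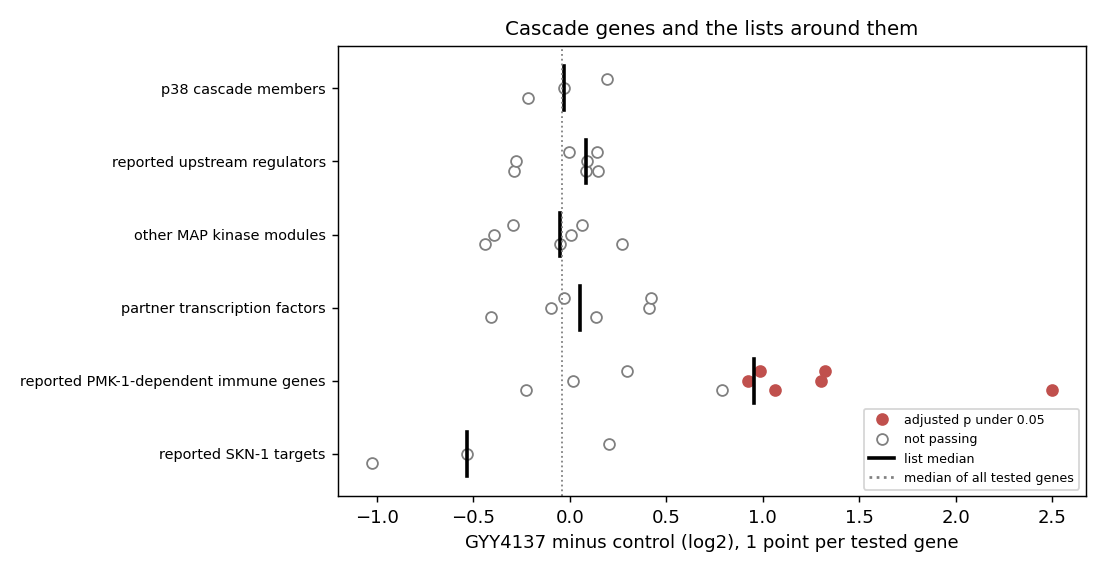
GYY4137 minus control on the log2 scale for each tested gene of the cascade and of the lists around it, 1 probe set per gene, with filled points for limma adjusted p under 0.05, a bar at each list's median and a dotted line at the median of all tested genes (-0.04). The 3 tested cascade genes lie between -0.22 and 0.19, and the only filled points are the 6 raised immune genes, between 0.92 and 2.50, of which sysm-1 and irg-5 are plotted as fitted with control values at or under the floor.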

How the data were processed

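The authors deposited 1 log2 value per probe set and array, made with GCRMA per the submitters' processing notes. GCRMA models background from each probe's bases, then normalizes between arrays and combines the probes of a set. The log2 scale was read from the range of the values. The software version is not given in the sources used here. Of 22625 probe sets, 77 Affymetrix controls were left out. Gene names are those of the platform annotation, brought up to date with a RefSeq table (WBcel235): 20810 probe sets had 1 symbol (20745 matched), 843 several and 972 none. Genes were named from probe sets with 1 symbol.

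Probe sets above 4 on at least 3 of 6 arrays (8053) entered limma 3.58.1 (R 4.3.3; lmFit, eBayes, two-sided, Benjamini-Hochberg, threshold 0.05), and the others in a fit over all probe sets. The probe set of highest mean stood for its gene. Named were all members, called genes of each list and otherwise up to 4 with the smallest p, and the 3 genes most correlated with each tested member; clec-67, irg-4, nlp-29 and nlp-31 were added after their values were seen. The members and lists were chosen with earlier results of these data known. The fit was also run on simulated data, with the outcome not reported here. Alternatives were the filter, normalization, intensity trend, array weights, replicate block, each array left out, and the mean over probe sets. Precision is limited by the number of arrays.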

Additional observations from a re-analysis of the deposited data

How the results depend on the processing

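Members called stayed at 0 under all 14 alternatives. That count read each gene on its probe set of highest mean, except in the mean over probe sets. Being below the filter, sek-1 and pmk-1 could enter the count only with no filter. In fits over all probe sets their smallest limma adjusted p was 0.0896, for sek-1 with array weights. The genes tir-1, sek-1, pmk-1 and vhp-1 kept their direction in each alternative run. The atf-7 difference, near 0 on 172407_x_at, turned to 0.04 with median centring and 0.022 with array weights; over the leave-outs it ran from -0.11 to 0.053 (0.053 without GYY4137 replicate 3, 0.028 without control replicate 2), and its mean over probe sets was -0.17. Over the leave-outs tir-1 ran from -0.27 to -0.16, sek-1 from -0.62 to -0.18, pmk-1 from -0.45 to -0.11 and vhp-1 from 0.16 to 0.26. Probe sets called numbered 121, and 33 with no filter, 80 with a floor of 6, 191 with quantile normalization, 1389 with array weights, 73 with the replicate block and 12 to 381 over the leave-outs. The raised PMK-1-dependent genes numbered 6, 1 with no filter and 1 to 7 over the leave-outs. With array weights 17.2% of all tested probe sets were called. In that setting 1 gene of the other MAP kinase modules was raised (dlk-1) and 1 lowered (lin-45). There 1 partner factor was raised (zip-2) and 2 SKN-1 targets were lowered. Without GYY4137 replicate 3, 1 SKN-1 target was lowered (0 to 1 over the leave-outs), where 1.69% of all tested probe sets were lowered. Without GYY4137 replicate 3 dcar-1 was at -0.003 (-0.003 to 0.233 over the leave-outs). The gst-4 difference was -0.004 with array weights and -0.009 without control replicate 3 (-0.009 to 0.328 over the leave-outs), and irg-2 was at -0.047 without GYY4137 replicate 1 and -0.01 without control replicate 2 (-0.047 to 0.122 over the leave-outs). The irg-4 difference was -0.081 without GYY4137 replicate 2, -0.021 without GYY4137 replicate 3 and -0.043 without control replicate 2 (-0.081 to 0.146 over the leave-outs), and nlp-29 was at 0.115 with array weights. The causes were not tested.

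Same-numbered arrays deviated together with correlations of 0.108, -0.0161 and 0.0513, so the numbers were not taken as pairs. With the replicate block 4 PMK-1-dependent genes were raised, where 73 of all 8053 tested probe sets were called in either direction. A floor of 6 left no value for tir-1, sek-1 or pmk-1, and the mean over probe sets does not apply to pmk-1.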
